A study of Homo sapiens with 2 samples.

Results

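Axon guidance and neuronal adhesion genes were followed across the CD90+ and CD90- fractions of KYSE-140, a long-established human cell line from a squamous cell carcinoma of the esophagus. The members were 42 genes of 11 role groups, taken by symbol: adhesion molecules of the L1, Caspr and synaptic families, slits and their ROBO receptors, netrins and their receptors, semaphorins, neuropilins and plexins. All 42 had at least 1 probe set with a single gene symbol, 118 probe sets in all, out of 19775 genes with such a probe set on the array. The cells of the line were separated by flow cytometry into cells with and without surface CD90, the product of THY1, and total RNA of each fraction was labelled with biotin and read on 1 Affymetrix U133 Plus 2.0 array. The data thus comprised 2 samples, 1 CD90+ and 1 CD90-, with no repeated sort, no other treatment named in the labels and no second cell line. The differences therefore have no replicate error and no test, and each fold describes these 2 RNA samples and not the spread between sorts.

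Guidance molecules steer growing axons by attraction and repulsion. Slits signal through ROBO receptors, netrins through DCC, neogenin and UNC5 receptors, and semaphorins through plexins. Most secreted class 3 semaphorins need neuropilins as ligand-binding partners of the plexins. Many of these genes are also used outside the nervous system, where they act on cell migration, adhesion and vessel growth, and several are expressed in epithelia and carcinomas. L1 family members, Caspr proteins and neurexins are best known for holding axons, glia and synapses together.

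Signals are linear MAS5 signals, which the authors scaled to a common mean. The median over all probe sets was 72.1 on the CD90+ and 71.1 on the CD90- array. A floor of 71.6, the 50th percentile of both arrays, was applied: signals under it were set to it before the log2 ratio of CD90+ over CD90- was taken, and a fold with 1 side under it is given as a lower bound. Each gene is represented by its brightest probe set. A gene counted as measured when either array read that probe set at or above the floor, which 31 of the 42 members did, beside 12466 of the 19775 genes. In bulk RNA, fewer cells with a transcript and less of it per cell cannot be told apart. THY1 read 293 in CD90+ and 78.9 in CD90- cells, in the direction of the sort.

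CNTNAP2, ROBO2 and NRCAM were each at least 2-fold lower in CD90+ cells, and SEMA3D and PLXNA2 at least 2-fold higher. These 3 lower genes made up 9.68% of the 31 measured members, where 1.75% of all measured genes were that much lower. The 2 higher genes made up 6.45%, where 2.47% of all measured genes were. Both counted as measured through their CD90+ signal alone. With the floor reached on both arrays, 0 of 27 members were at least 2-fold higher, beside 240 of 11373 genes. At a 1.5-fold difference the members counted 4 lower (12.9%, beside 6.76% of all genes) and 6 higher (19.4%, beside 7.37%). The additional genes at this threshold were the neurexin gene NRXN3, lower in CD90+ cells, and L1CAM, SEMA3F, NRP1 and PLXNA1, higher. The remaining 21 measured members had log2 ratios between -0.46 and 0.58. Of the 31 ratios 14 were above 0 and 17 below, and their median was -0.17, beside 0.01 over all measured genes. The ratios were spread more widely than those of all genes, with an SD across genes of 0.89 against 0.47. That SD is across genes, which are not replicates. The members were chosen with earlier results of these data known. These shares, this spread and the positions below therefore describe the list and test nothing.

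**Figure D1:**
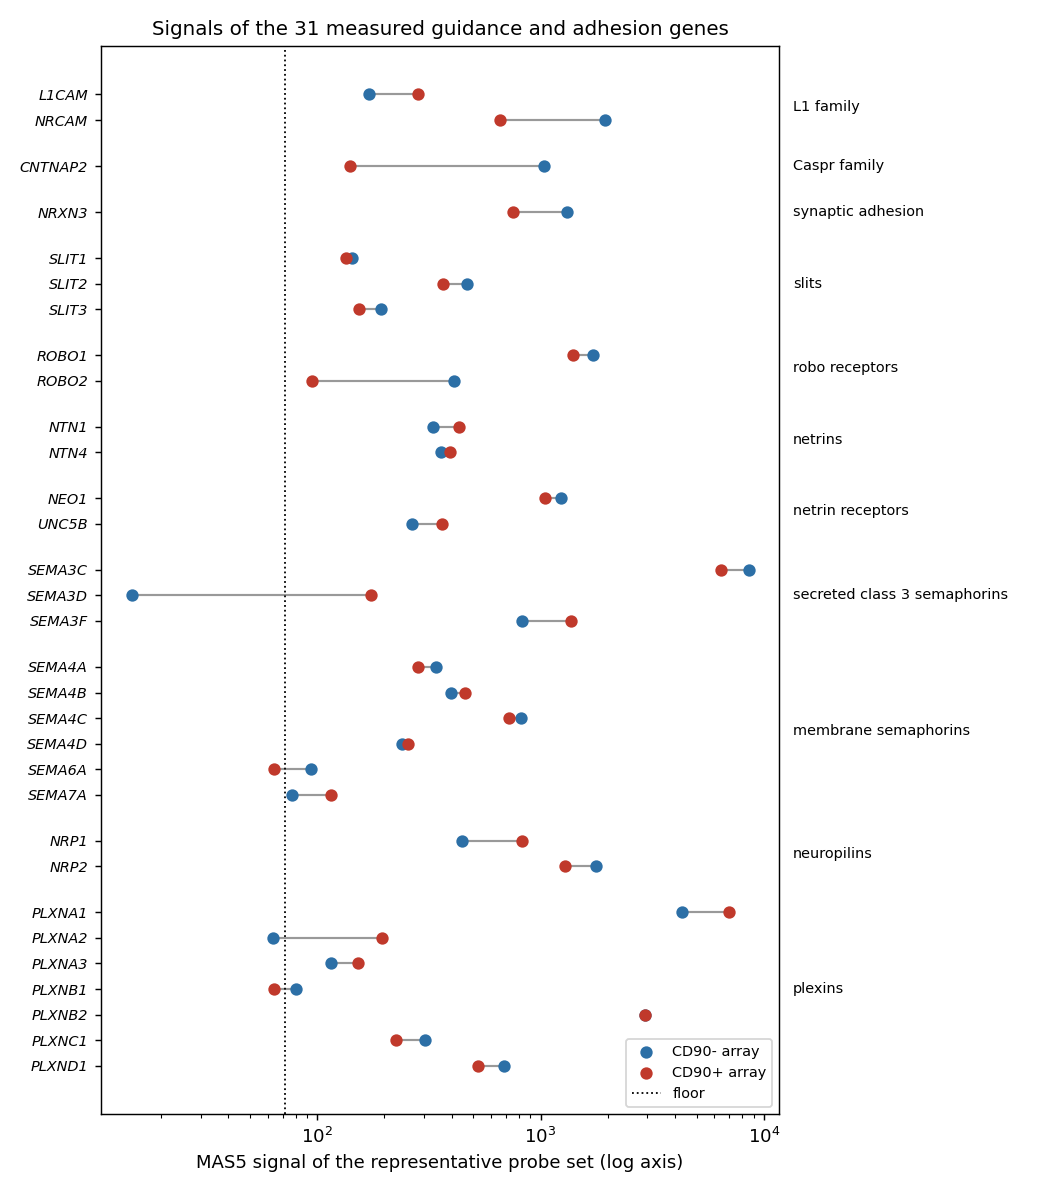
MAS5 signal of the representative probe set (horizontal, log axis) in CD90+ cells (red) and CD90- cells (blue) for the 31 measured members, grouped by role, with 1 array per population and the floor of 71.6 as a dotted line. The widest gaps are those of CNTNAP2 and ROBO2, with the red point on the left, and SEMA3D, whose CD90- signal lies under the floor.

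Among all measured genes, CNTNAP2 had the second position from the low end: 1 of the 12466 had a lower ratio. ROBO2 had 18 genes below it and NRCAM 52. At the high end, the ratios of PLXNA2 and SEMA3D are lower bounds set by the floor. With the floor, 125 and 164 genes had a higher ratio. Ratios of other genes can be lower bounds too, so these positions hold for floored ratios only. Without a floor PLXNA2 was at 1.63 and SEMA3D at 3.56, the latter larger in size than CNTNAP2 at -2.89. NRP1, at 1.87-fold and with both signals above the floor, was passed by 395 genes.

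**Figure D2:**
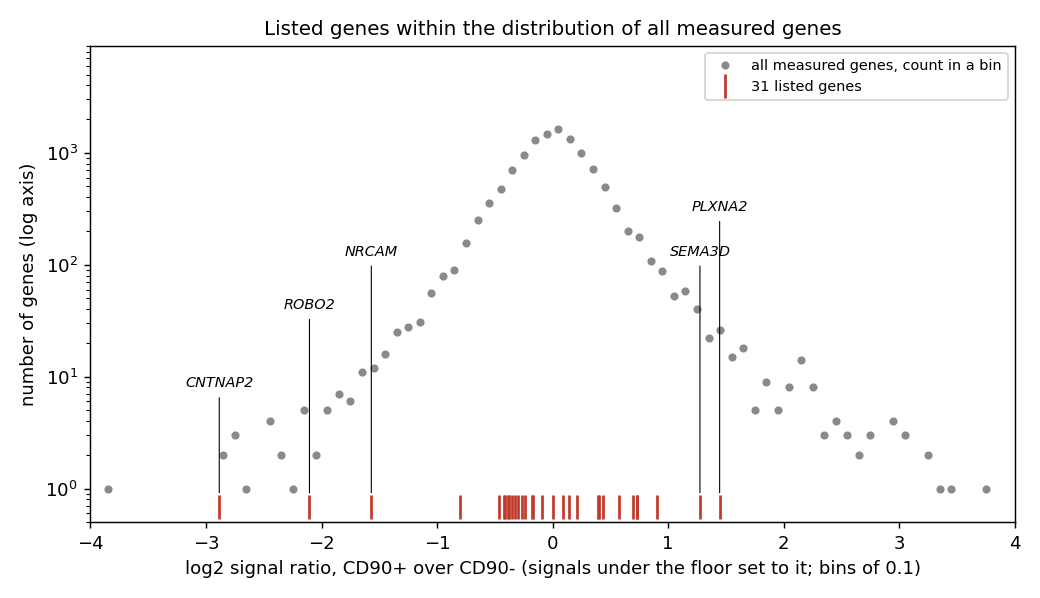
Number of measured genes (vertical, log axis) in bins of 0.1 of the log2 ratio of CD90+ over CD90- signal (grey points), with the 31 listed genes as red ticks. CNTNAP2 at -2.89, ROBO2 at -2.10 and NRCAM at -1.57 lie in the low tail, SEMA3D at 1.28 and PLXNA2 at 1.45, both lower bounds, on the high side.

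Neuronal adhesion molecules held the lowest ratio of the members, that of CNTNAP2. Of the 8 listed, 4 were measured. Of these 3 were at least 1.5-fold lower in CD90+ cells and 1 that much higher, beside 6.76% and 7.37% of all measured genes. CNTNAP2 encodes Caspr2, a neurexin superfamily protein that clusters potassium channels along myelinated axons. Its brightest probe set read 140 in CD90+ and 1034 in CD90- cells, 7.39-fold lower, with a log2 ratio of -2.89. The other probe sets read 158 against 749, 56.9 against 410 and 50.1 against 175. All 4 were thus lower in CD90+ cells, with log2 ratios from -2.89 to -1.29, the last 2 of them with the CD90+ signal under the floor. CNTNAP3, a Caspr family relative, had 1 probe set with a single symbol, which read 39.0 and 32.9, under the floor on both arrays. CNTNAP3 has near-identical copies, and 2 further probe sets carry its symbol together with theirs. They read 600.0 against 368 and 122 against 94.5, higher in CD90+ cells, and cannot be assigned to 1 of the copies, so they were not counted.

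To show the sequence before the start of members that differed by 2-fold, the 250 bases upstream of the RefSeq start are printed for 1 lower gene, CNTNAP2, and 1 higher gene, PLXNA2 (GRCh38.p14). CNTNAP2 is on the plus strand, with the window at chr7:146116551-146116800, and PLXNA2 on the minus strand, with the window at chr1:208244385-208244634. These are the genes beyond 2-fold whose window lies outside the annotated span of the gene. Which start these cells use was not measured. Capitals mark matches on either strand to the letters searched: the GC box GGGCGG, the TATA box TATAAA, the CCAAT box CCAAT, the E-box CAGGTG, the ETS core CCGGAA and the RE1 half-site TTCAGCACC. None of these contains another.
CNTNAP2: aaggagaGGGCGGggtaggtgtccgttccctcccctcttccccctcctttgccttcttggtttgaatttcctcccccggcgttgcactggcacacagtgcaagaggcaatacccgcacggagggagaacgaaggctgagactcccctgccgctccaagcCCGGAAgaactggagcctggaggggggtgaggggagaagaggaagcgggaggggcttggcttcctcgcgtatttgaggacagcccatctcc
PLXNA2: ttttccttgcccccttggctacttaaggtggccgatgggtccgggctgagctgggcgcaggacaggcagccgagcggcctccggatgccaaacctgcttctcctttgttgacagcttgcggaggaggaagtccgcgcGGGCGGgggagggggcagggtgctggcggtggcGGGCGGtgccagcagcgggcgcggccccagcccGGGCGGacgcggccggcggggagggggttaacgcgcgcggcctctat

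The CNTNAP2 window held 1 GC box and 1 ETS core, with 12 CpG dinucleotides and a GC content of 62.4%. The PLXNA2 window held 3 GC boxes and none of the other letters, with 27 CpG dinucleotides and a GC content of 72.4%. A window was found for 36 of the 42 members. The GC box was in 21 of the 36, beside 42.3% of 27305 promoters of the same length and 66.6% of the 10141 among them whose gene was measured here. The ETS core was in 5 of the 36, beside 14.8% of all and 24.7% of measured promoters. The CCAAT box was in 6, beside 33.0% of all and 35.2% of measured promoters, and the E-box in 4, beside 17.5% and 16.03%. The TATA box, found in 11.1% of all and 5.71% of measured promoters, and the RE1 half-site, found in 0.30% of all and 0.18% of measured promoters, matched in 0 of the 36. The members' median was 17.5 CpG dinucleotides in 250 bases, between 11 for all promoters and 21 for those of measured genes. These matches describe letters in 1 window and not sites of binding.

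The L1 family members that were measured differed in direction. NRCAM, an ankyrin-binding adhesion molecule of the node of Ranvier, read 655 in CD90+ and 1944 in CD90- cells, 2.97-fold lower. Its second probe set, of the _x_at class that is prone to cross-hybridisation, read 61.7 against 108. With the CD90+ side under the floor this is at least 1.51-fold lower, and the log2 ratio was -0.60 with the floor and -0.81 without it. L1CAM, which guides axon outgrowth and is found at the invasive front of several carcinomas, read 284 in CD90+ and 171 in CD90- cells, 1.66-fold higher and so the other way. The second probe set of L1CAM read 5.46 and 5.07, under the floor. CHL1, the close homologue of L1, and NFASC, or neurofascin, stayed under the floor on all of their probe sets.

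Of the synaptic pair, NRXN3, a presynaptic neurexin, was lower in CD90+ cells and NLGN1, a postsynaptic partner of neurexins, was not measured. The brightest NRXN3 probe set read 756 against 1320, 1.75-fold lower. The others read 247 against 657, 90.9 against 104 and 22.3 against 133, the last with the CD90+ side under the floor. All 4 had log2 ratios below 0, from -1.41 to -0.20 with the floor, so the size of the difference depended on the probe set. Without the floor the last probe set was at -2.58. NLGN1 reached at most 50.7 on its 2 probe sets.

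Slits differed little between the fractions, while their receptors ROBO1 and ROBO2 had unequal ratios. The secreted repellents SLIT1 (134 against 143), SLIT2 (365 against 466) and SLIT3 (154 against 194) had log2 ratios of -0.10, -0.35 and -0.33. All 3 SLIT2 probe sets were lower in CD90+ cells, between -0.39 and -0.13, whereas a second SLIT3 probe set gave 0.05. ROBO1, the receptor read by a single probe set, gave 1397 against 1721, a log2 ratio of -0.30. ROBO2 read 95.0 in CD90+ and 409 in CD90- cells, 4.30-fold lower, with the CD90+ signal just above the floor. The other ROBO2 probe sets, at 33.3 against 61.2 and 41.7 against 51.3, were under the floor on both arrays, so this value rests on 1 probe set. With a floor of 397, the 75th percentile of signals, the ROBO2 ratio was -0.042, because its CD90- signal barely exceeds that floor.

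Netrins and their receptors had no member beyond 1.5-fold. The secreted NTN1 read 433 against 329 and NTN4, a laminin-binding netrin of basement membranes, 395 against 358. The receptor neogenin, encoded by NEO1, read 1051 against 1238 on its brightest probe set and 419 against 379 on the next, with log2 ratios of opposite sign, -0.24 and 0.15. UNC5B, a repulsive netrin receptor that is also studied in vessel growth and apoptosis, read 361 against 266 on the brightest and 195 against 197 on the next. DCC, the attractive netrin receptor, and UNC5C stayed under the floor on all probe sets, with highest signals of 32.8 and 43.9.

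Secreted class 3 semaphorins went both ways. SEMA3D read 173 in CD90+ and 14.7 in CD90- cells, at least 2.42-fold higher, since the CD90- signal lay under the floor. Its second probe set was under the floor on both arrays, at 25.5 and 19.5, so the call rests on 1 probe set. SEMA3F, a ligand of NRP2 and known for repelling endothelial and tumour cells, read 1375 against 829, 1.66-fold higher. Its other probe sets, at most 66.2, were under the floor. SEMA3C, which promotes migration in several carcinomas, read 6450 against 8558 on the brightest probe set and 213 against 312 on the other, log2 ratios of -0.41 and -0.55. SEMA3A, SEMA3B and SEMA3E had no single-symbol probe set at the floor.

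Membrane-bound semaphorins of classes 4 to 7 differed little, with 6 of 8 measured and 0 beyond 1.5-fold. SEMA7A, a GPI-anchored semaphorin that binds integrins, read 115 against 77.1, a log2 ratio of 0.58 at signals close to the floor. SEMA4C read 724 against 820 on its brightest probe set, a log2 ratio of -0.18. The second SEMA4C probe set read 47.3 against 140, a log2 ratio of -0.97 with the CD90+ side under the floor. SEMA4D, known from lymphocytes as CD100 and a ligand of PLXNB1, read 254 against 238, and its second probe set was under the floor. SEMA4A read 282 against 339 on the brighter and 108 against 115 on the other of its probe sets, both lower in CD90+ cells by little. SEMA4B read 460 against 397 on its only probe set. SEMA6A read 64.2 against 93.8, with the CD90+ side under the floor and its other 4 probe sets under the floor on both arrays. The log2 ratios of these 4 genes lay between -0.39 and 0.21. SEMA5A was under the floor on all of its probe sets. SEMA6B counted as not measured because its representative probe set read 34.3 and 29.9, although its 2 _x_at probe sets read 138 against 144 and 64.2 against 84.3.

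Neuropilins, the ligand-binding co-receptors of class 3 semaphorins and of VEGF isoforms, had ratios on opposite sides of 0. NRP1 read 828 in CD90+ and 443 in CD90- cells on its brightest probe set, 1.87-fold higher, and 567 against 322 on the next, with log2 ratios of 0.90 and 0.82. NRP2 read 1289 against 1778 on its brightest probe set, a log2 ratio of -0.46. All 11 NRP2 probe sets reached the floor; 10 had ratios below 0 and 1 above, from -0.65 to 0.20, with a median of -0.29. The NRP1 ratios thus lay above every one of the NRP2 ratios. The neighbours' median described below was -0.24 for NRP2 and 0.04 for NRP1.

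Plexins, the signalling receptors of semaphorins, were measured in all 7 members, 4 with ratios above 0 and 3 below. PLXNA2 read 195 in CD90+ and 63.0 in CD90- cells, at least 2.72-fold higher. Its other probe sets were under the floor, at 48.0 against 50.3 and 15.9 against 5.08, so this call too rests on 1 probe set. PLXNA1 read 6955 against 4290 on its brightest probe set, 1.62-fold higher, but 377 on both arrays on the next, so the difference was seen on 1 of its 2 measured probe sets. PLXNA3 had a log2 ratio of 0.39 (152 against 115), so the representative probe sets of the 3 measured class A plexins were all higher in CD90+ cells, while PLXNA4 was under the floor. PLXNB2, a receptor of class 4 semaphorins, read 2944 against 2929. PLXNB1, the SEMA4D receptor, read 63.7 against 80.6, with the CD90+ side under the floor. PLXNC1, the SEMA7A receptor, read 226 against 303, and PLXND1, a receptor of class 3 semaphorins in vessels, 527 against 685. The log2 ratio of PLXNB1 was -0.17 with the floor and -0.34 without it, and those of PLXNC1 and PLXND1 were -0.42 and -0.38. All 3 probe sets of PLXND1 that reached the floor were lower in CD90+ cells.

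Probe sets of the same gene were the closest thing to a repeated measurement. Over the 15 members with at least 2 probe sets at the floor, the pooled SD of log2 ratios within a gene was 0.36, beside 0.31 over 6188 genes. It covers array noise and differences between transcripts, not the spread between sorts. Probe sets of SLIT3, NEO1, UNC5B, NRP2 and PLXNA1 had ratios on both sides of 0. Another 17 members, among them ROBO2, SEMA3D and PLXNA2, were read by 1 probe set at the floor and so had no such check.

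**Figure D3:**
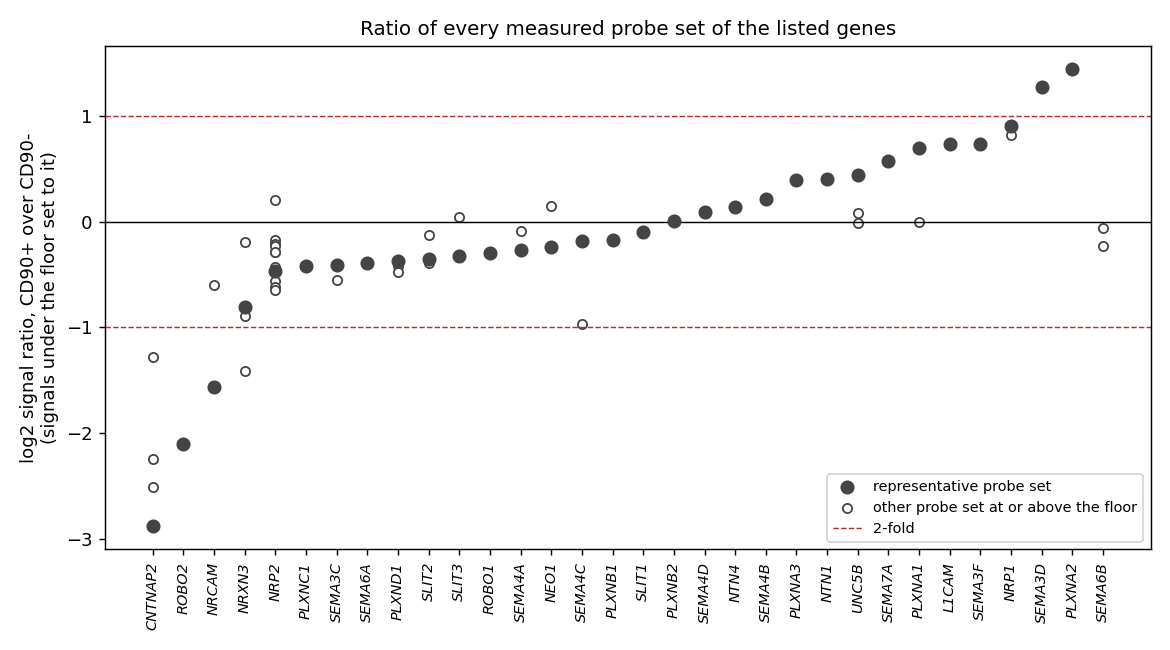
Log2 ratio of CD90+ over CD90- signal (vertical, signals under the floor set to it) for every probe set of a listed gene that reached the floor on at least 1 array, with genes ordered by their representative probe set (filled) and SEMA6B, which has no representative at the floor, last. All 4 CNTNAP2 and all 4 NRXN3 probe sets lie below 0, whereas ROBO2, SEMA3D and PLXNA2 have 1 probe set each.

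By position in the RefSeq table, 9 of the 42 members lie on chromosome 3 and 6 on chromosome 7, the latter being CNTNAP2, NRCAM and the semaphorins SEMA3A, SEMA3C, SEMA3D and SEMA3E. To set each member beside its surroundings, the median log2 ratio of the 50 nearest measured genes was taken. It was -0.12 for CNTNAP2, 0.03 for NRCAM, -0.04 for ROBO2 and -0.14 for SEMA3D. These genes were picked for differing by at least 2-fold, while a median of 50 ratios tends to lie near that of all genes, 0.01. Medians smaller in size than the genes' own ratios were thus largely set by this choice. Whether individual neighbours differed along with a gene was not tested. ROBO1 and ROBO2 both lie on chromosome 3 and had ratios of -0.30 and -2.10. PLXNA2 lay among neighbours with a median of 0.30, and its ratio minus that median was 1.15. SEMA4C lay among neighbours with a median of -0.42, so its own ratio of -0.18 was above that median. Copy number was not measured.

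Other members of the guidance families had 1 gene beyond 2-fold in each direction. Of 45 further ligands, receptors and adhesion genes, 17 were measured and 15 of them lay within 2-fold, with a median log2 ratio of 0.03. The 1 higher and the 1 lower gene made up 5.88% each, beside 2.47% and 1.75% of all measured genes. SLITRK6, a neuronal transmembrane protein of the Slit- and Trk-like family, read 408 in CD90+ and 81.7 in CD90- cells, 4.99-fold higher, and all of its 3 probe sets were higher. SEMA6D, a transmembrane semaphorin that binds PLXNA1, read 135 against 399, 2.95-fold lower, but its log2 ratio was -0.027 on its least changed probe set. CNTN1, or contactin 1, a partner of Caspr proteins, read 6714 against 8076. Another 27 genes with a probe set, among them the neural cell adhesion molecule NCAM1, PLXNA4 and CNTN2, stayed under the floor.

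Intracellular effectors that guidance receptors act on mostly differed by less than 2-fold. Of 65 listed, 52 were measured and 49 of them lay within 2-fold, with a median log2 ratio of 0.04. The 3 at least 2-fold higher made up 5.77%, beside 2.47% of all measured genes. At least 2-fold lower were 0, beside 1.75% of all measured genes. MSN, or moesin, which ties L1-type molecules and other membrane proteins to actin, read 4025 against 420, 9.58-fold higher. RRAS, a small GTPase inactivated by plexins, read 400 against 154, 2.59-fold higher. MICAL2, an enzyme that oxidises actin and belongs to the family of plexin-interacting MICAL proteins, read 309 against 138, 2.23-fold higher, but its log2 ratio was 0.28 on its least changed probe set. The collapsin response mediators, which carry semaphorin signals to the cytoskeleton, were all under 2-fold: CRMP1 read 517 against 669, DPYSL2 2738 against 2804, DPYSL3 141 against 219 and DPYSL5 240.0 against 337, while DPYSL4 was under the floor.

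**Figure D4:**
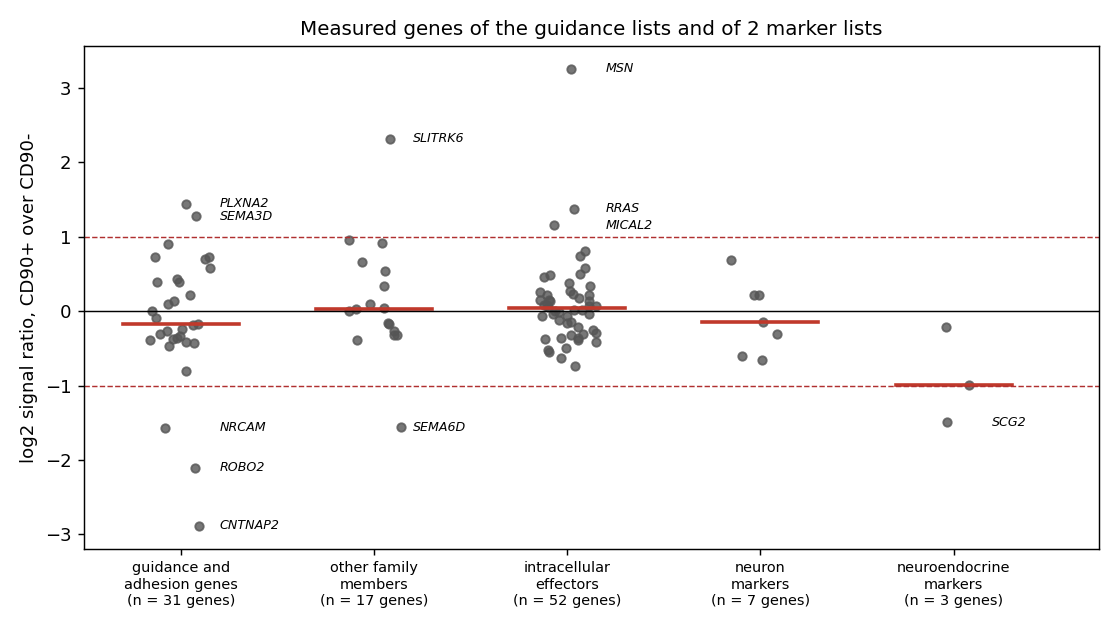
Log2 ratio of CD90+ over CD90- signal (vertical) for each measured gene of the guidance and adhesion list, 2 wider pathway lists and 2 marker lists, 1 point per gene with the median as a red bar and 2-fold as dashed lines. Medians lie close to 0 in both wider lists (0.03 and 0.04), and SCG2 is the marker gene beyond 2-fold.

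Markers of the labelled cell type were present in both fractions, with 8 of 10 squamous markers measured and 0 of them beyond 1.5-fold; keratin 5 (KRT5) read 19357 against 19208. Since the members are known mainly from neurons, neuronal and neuroendocrine markers are given beside them. Of 14 neuron markers 7 were measured and 0 differed by 2-fold, with a median of -0.14 and summed signals of 25043 in CD90+ and 28481 in CD90- cells. The light neurofilament NEFL read 9194 against 14436 and the growth cone protein GAP43 1296 against 801. RBFOX3, SYP, STMN2, ELAVL3, ELAVL4, NEFM and DCX were under the floor on both arrays. Of 7 neuroendocrine markers 3 were measured, all with ratios below 0, and their summed signal was 7798 in CD90+ and 19566 in CD90- cells. The granins SCG2, at 4894 against 13781, and CHGB, at 2867 against 5702, made up most of it, while CHGA and SCG3 were under the floor. INSM1, the other measured neuroendocrine marker, read 36.2 against 83.1, with the CD90+ side under the floor. The measured neuron markers went both ways, 3 with ratios above 0 and 4 below. SCG2 and CHGB were thus lower on the same array as CNTNAP2, NRCAM and ROBO2, and their part in those differences was not tested.

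Fibroblast, glial, endothelial and leukocyte markers had few measured members: 2 of 8, 1 of 7, 1 of 6 and 0 of 6. The collagen gene COL1A1 read 2125 in CD90+ and 1240 in CD90- cells, and PDGFRA, the other measured fibroblast gene, 106.9 against 107.0. The other fibroblast genes COL1A2, COL3A1, DCN, LUM, PDGFRB and FAP were under the floor on both arrays, as were SOX10, S100B and GFAP of the glial list and VWF, CDH5 and KDR of the endothelial list.

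The processing moved the 10 genes that differed by at least 1.5-fold to different degrees. The 3 ways of rescaling the arrays left CNTNAP2 between -2.87 and -2.86, ROBO2 between -2.11 and -2.08 and NRCAM between -1.56 and -1.55. By the least changed probe set CNTNAP2 gave -1.29, while NRCAM gave -0.60 and NRXN3 -0.20. PLXNA1 went from 0.70 to -0.001 by that rule, and also without the _x_at, _s_at and _a_at classes. SEMA3D was most sensitive to the floor, from 1.28 with it to 3.56 with none, and SEMA3D and PLXNA2 were not measured with the floor at the 75th percentile. CNTNAP2, NRCAM and PLXNA2 are read at the floor by probe sets of the _s_at and _x_at classes, which match several transcripts or related sequences, so these genes had no value when those classes were left out.

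**Figure D5:**
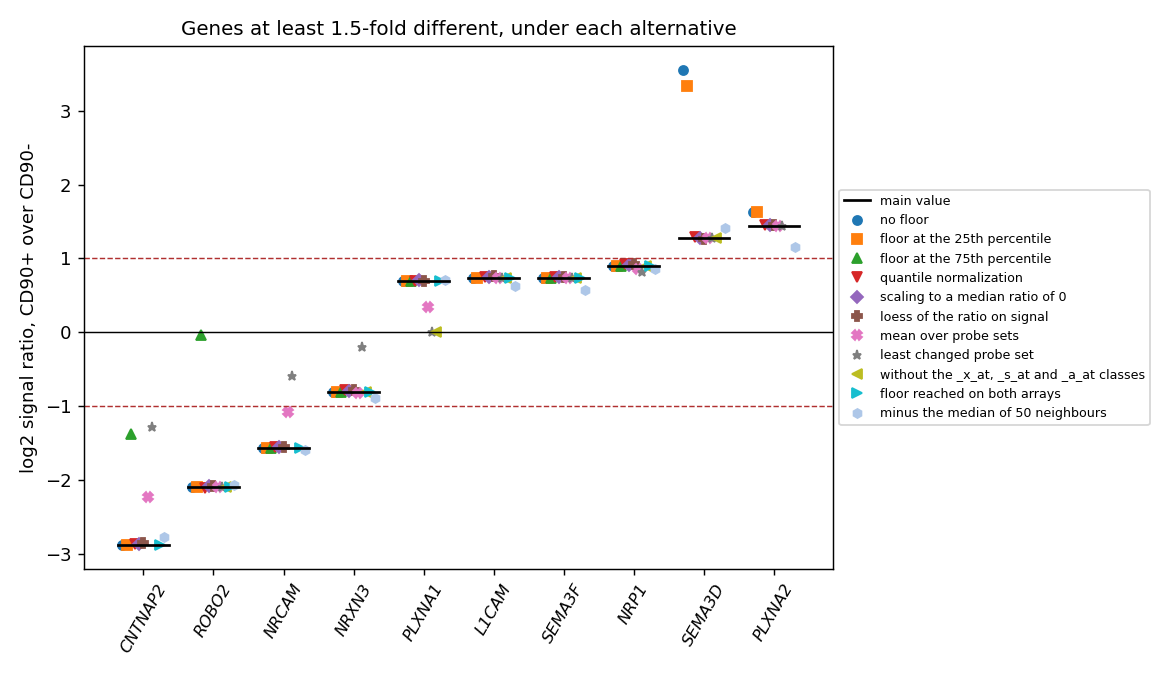
Log2 ratio of CD90+ over CD90- signal (vertical) of the 10 members at least 1.5-fold different, with the main value as a black bar and 1 symbol per alternative processing. CNTNAP2 stays below -1 under every alternative that gives it a value, ROBO2 moves to -0.042 under the 75th percentile floor, and SEMA3D moves up to 3.56 without a floor.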

How the data were processed

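Total RNA of 1 CD90+ and 1 CD90- sample was read on 1 array each. The deposited values are linear signal intensities made by the authors with MAS5, per the submitters' processing notes, with no version or settings stated there. The method subtracts mismatch from perfect-match signal, so dim probe sets give noisy ratios. The 2 to 98% trimmed mean was 499.9 on both arrays, so each array had been scaled. Detection calls and scanner files were not used here.

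Of 54675 probe sets 41091 had 1 symbol in the platform annotation, 1801 had several and were not named, and 11777 had none; 41037 matched RefSeq (GRCh38.p14) by gene identifier. The 62 control probe sets were left out. The brightest probe set by mean log2 signal stood for a gene (an _x_at probe set where a gene had no other class). Every member is accounted for, with both signals where a gene differed by at least 1.5-fold; in the wider lists up to 4 genes each way beyond 2-fold were named by rule, and CNTN1, the collapsin response mediators and the marker genes after their values were seen. With 1 array per population there is no test, and precision is limited by their number. The members and lists were chosen with earlier results of these data known. The alternatives were other floors, 3 normalizations (quantile, median, loess with a span of 0.3), other probe set rules, other fold thresholds and subtraction of the neighbours' median. Python 3.11.15 with pandas 2.3.3, numpy 2.4.6 and, for loess, statsmodels 0.14.6 was used. The counting was checked on simulated data with differences planted only in genes well above the floor. That check does not cover calls near the floor.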

Additional observations from a re-analysis of the deposited data

How the results depend on the processing

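No paired analysis was possible because each population has 1 array, and no replicate could be left out. Of 316 ratios of listed genes under 11 alternatives, 314 kept their side of the 2-fold threshold and none of those beyond it changed sign; NRCAM with the least changed probe set and ROBO2 with the floor at the 75th percentile fell under 2-fold. A gene that an alternative left unmeasured has no value there, as SEMA3D and PLXNA2 with the floor reached on both arrays. The mean and the least changed probe set could not move the 17 members read by 1 probe set at the floor. Part of these outcomes was thus fixed in advance. Without a floor the genes measured with it were kept. No rescaling moved the median of all genes by over 0.1. Counts were taken as the same within 1.5 times and medians within 0.1, and 112 of 148 counts and medians were. The others follow as higher, then lower, at least 2-fold unless stated.

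Among the listed genes (2 and 3 of 31 in the main setting) there were 5 lower of 41 with the floor at the 25th percentile. With it at the 75th there were 0 higher of 17, and with the floor reached on both arrays 0 higher of 27. Without the _x_at, _s_at and _a_at classes there were 1 and 1 of 24. At 1.5-fold there were 6 higher and at 3-fold 0 higher, of 31. The median was -0.016 by the least changed probe set. Among other family members (1 and 1 of 17) there were 2 and 2 without a floor. There were 5 and 2 of 36 with the lower floor and 0 and 0 of 8 with the higher one. By the mean or the least changed probe set there were 0 lower. After subtraction of the neighbours' median there were 2 higher, at 1.5-fold 4 higher and at 3-fold 0 lower. Their median was 0.18 with the lower and -0.14 with the higher floor. Among the effectors (3 and 0 of 52) there was 1 higher of 43 with the higher floor. At 1.5-fold there were 6 and 2 of them, and at 3-fold 1 higher. Over all genes (308 and 218 of 12466) there were 541 and 381 without a floor and 142 lower by the least changed probe set. There were 1122 and 835 of 17225 with the lower floor and 89 and 66 of 8118 with the higher one. At 1.5-fold there were 919 and 843, and at 3-fold 101 and 52. Counts taken as the same were 227 and 189 of 9718 without the _x_at, _s_at and _a_at classes. With the floor reached on both arrays they were 240 and 177 of 11373. Leaving out single libraries was not possible, and the depth of signal limits the genes near the floor.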

Other observations

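With a lower floor of 17.2, the 25th percentile, the netrin receptor gene UNC5C and the semaphorin gene SEMA5A joined the members at least 2-fold lower in CD90+ cells. With them 5 of 41 measured members were that much lower, beside 835 of 17225 genes at the same floor. UNC5C read 5.58 against 43.9 and SEMA5A 8.78 against 49.2, on the probe set that stands for each gene. Another UNC5C probe set went the other way, at 20.7 against 8.32. All of these signals lie under the median of their array, where MAS5 ratios are noisy, and both genes were read as under the floor in the report.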
